A study of Bos taurus with 9 samples.

Results

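This account covers 40 genes of the cell cycle and of proliferation in cells labelled as bovine endometrial epithelial cells, out of 30641 genes in the deposited count table. The genes were listed by symbol for their known roles, as 23 mitotic genes and 17 genes of S phase and its preparation, with earlier results of these data known. All 40 were found in the table, and all 40 passed the filter on low counts that left 14874 genes. The study sequenced RNA from 9 libraries, 3 in each of 3 groups of cultured cells. Cells of the untreated control group had neither the transfection reagent nor RNA. Cells of the reagent alone group were exposed to jetMESSENGER, a reagent that carries mRNA into cells, 24 hours after seeding. Cells of the DPPA3 mRNA group received jetMESSENGER together with DPPA3 mRNA, 500 ng of it, transcribed in vitro, also 24 hours after seeding. DPPA3 is a maternal factor of the early embryo. No group received an unrelated mRNA. The labels name no donor animal, passage or harvest time, so the replicates may be technical and the p-values then measure only the spread between these libraries.

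A dividing cell prepares its origins of replication in G1, copies its DNA in S phase and separates the copies in mitosis. The transcription factor E2F1 drives many S phase genes, and the factor FOXM1 drives many genes used in G2 and mitosis. Transcripts of both classes are abundant in cycling cells and scarce in resting cells, so they are widely read as signs of proliferation. In the endometrium the epithelium proliferates under oestrogen and slows its division under progesterone, and in culture proliferation also depends on medium and density.

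Total counts per library ranged from 3890134 in reagent alone replicate 1 to 13258036 in DPPA3 mRNA replicate 1. The keratins KRT8 and KRT19 of epithelial cells were abundant, at 3802 to 4995 CPM for KRT8 and 2196 to 2872 CPM for KRT19 (CPM is the count of a gene relative to the scaled total of its library). The epithelial marker EPCAM had 37 counts over all libraries and did not pass the filter. The summed level of the 8 stromal markers was 27910 to 46373 CPM, which included the collagen genes COL1A1, COL1A2 and COL3A1. The 6 epithelial markers that passed summed to 8586 to 11050 CPM. These sums hold different genes and are not corrected for transcript length, so they do not give shares of cell types. The immune marker PTPRC had 0 counts in every library. Untreated control replicate 1 stood apart across the table: it lay outside the range of the other 8 libraries, below it for 31.3% and above it for 28.8% of all genes tested. A single transcript, LOC112442408, took 10.98% of its counts and 3.05% to 4.36% in the others.

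The cells of every group carried transcripts of the whole list. The smallest count of any member in any library was 9, for CCNE2 in reagent alone replicate 1. Together the members took 0.116% to 0.151% of the counts of a library. The mean log2 CPM of the 23 mitotic members was 3.88, 4.02 and 4.30 in untreated control replicates 1, 2 and 3, 4.17, 3.85 and 4.28 with reagent alone, and 4.09, 4.03 and 4.25 with DPPA3 mRNA. The 3 groups overlapped, and the span between libraries of a group was wider than any difference between group means. For the 17 S phase members the mean log2 CPM was 4.67, 4.73 and 4.77 in the untreated controls, 4.51, 4.52 and 4.70 with reagent alone, and 4.82, 4.77 and 4.83 with DPPA3 mRNA. All DPPA3 mRNA libraries lay above all reagent alone libraries in that mean, and the lowest of them equalled the highest control to 2 decimals. These means summarise members picked with earlier results known and were not tested. In bulk RNA, fewer cycling cells and less RNA in each cycling cell cannot be told apart.

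**Figure D1:**
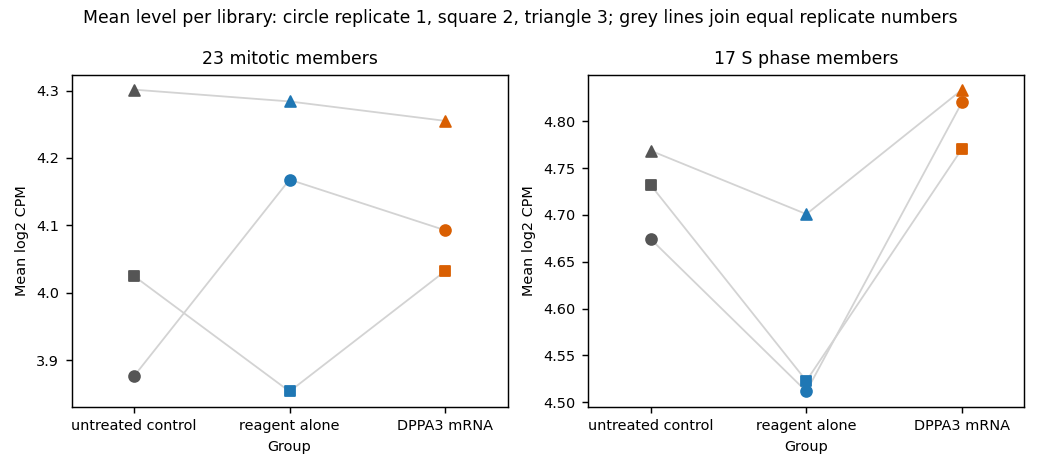
Mean log2 CPM of the 23 mitotic members (left) and the 17 S phase members (right) in each of 9 libraries, by group, with a symbol for each replicate number and grey lines joining equal numbers; the vertical axes differ and do not start at 0. Replicate 3 had the highest mitotic mean of each group, at 4.30, 4.28 and 4.25, while the S phase means with DPPA3 mRNA, 4.77 to 4.83, lay above those with reagent alone, 4.51 to 4.70.

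Among the mitotic members, MKI67, which encodes the proliferation antigen Ki-67 that coats mitotic chromosomes, measured 220, 140 and 227 CPM in untreated control replicates 1, 2 and 3. It measured 172, 131 and 165 CPM in reagent alone replicates 1, 2 and 3 and 186, 143 and 204 CPM with DPPA3 mRNA. Replicate 2 was the lowest of its group each time, and the groups overlapped. TOP2A, the topoisomerase that untangles sister DNA before division, measured 30.6, 49.0 and 41.5 CPM in the untreated controls, 55.0, 45.9 and 54.1 CPM with reagent alone and 39.7, 46.2 and 58.9 CPM with DPPA3 mRNA. CCNB1, the cyclin that activates CDK1 at entry into mitosis, measured 13.4, 11.3 and 13.2 CPM in the untreated controls, 10.7, 9.97 and 16.1 CPM with reagent alone and 16.1, 12.6 and 17.7 CPM with DPPA3 mRNA. Both genes overlapped between all groups. CDK1, the kinase itself, measured 9.02, 30.4 and 14.4 CPM in the untreated controls, 29.4, 22.5 and 23.1 CPM with reagent alone and 19.6, 25.0 and 25.7 CPM with DPPA3 mRNA. The untreated controls thus held both the lowest and the highest CDK1 level of the 9 libraries, a ratio of 3.37 within the group.

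The other mitotic members are described by role. The cyclins CCNB2 and CCNA2 had group means of 5.60 to 6.06 and 13.6 to 17.5 CPM. The spindle checkpoint kinases BUB1 and TTK and the checkpoint protein BUB1B had group means of 17.2 to 18.4, 5.99 to 9.07 and 11.6 to 14.2 CPM. The mitotic kinases AURKA, AURKB and PLK1, which build the spindle and time its steps, had means of 8.05 to 9.65, 11.2 to 14.5 and 17.6 to 21.8 CPM. The kinetochore proteins CENPE and CENPF had means of 22.2 to 27.7 and 83.0 to 91.1 CPM. Of the motor proteins KIF11, KIF20A and KIF23, which separate spindle poles and complete cytokinesis, the means were 20.5 to 23.9, 26.2 to 29.2 and 24.9 to 26.5 CPM. The spindle assembly factor TPX2, the microtubule binding protein NUSAP1 and BIRC5 (survivin, of the chromosomal passenger complex) had means of 54.2 to 61.1, 8.35 to 9.27 and 6.09 to 7.25 CPM. UBE2C, the ubiquitin carrier enzyme of the anaphase promoting complex, had group means of 2.78 to 3.41 CPM. CPM values are not corrected for transcript length, so they are not compared between genes.

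**Figure D2:**
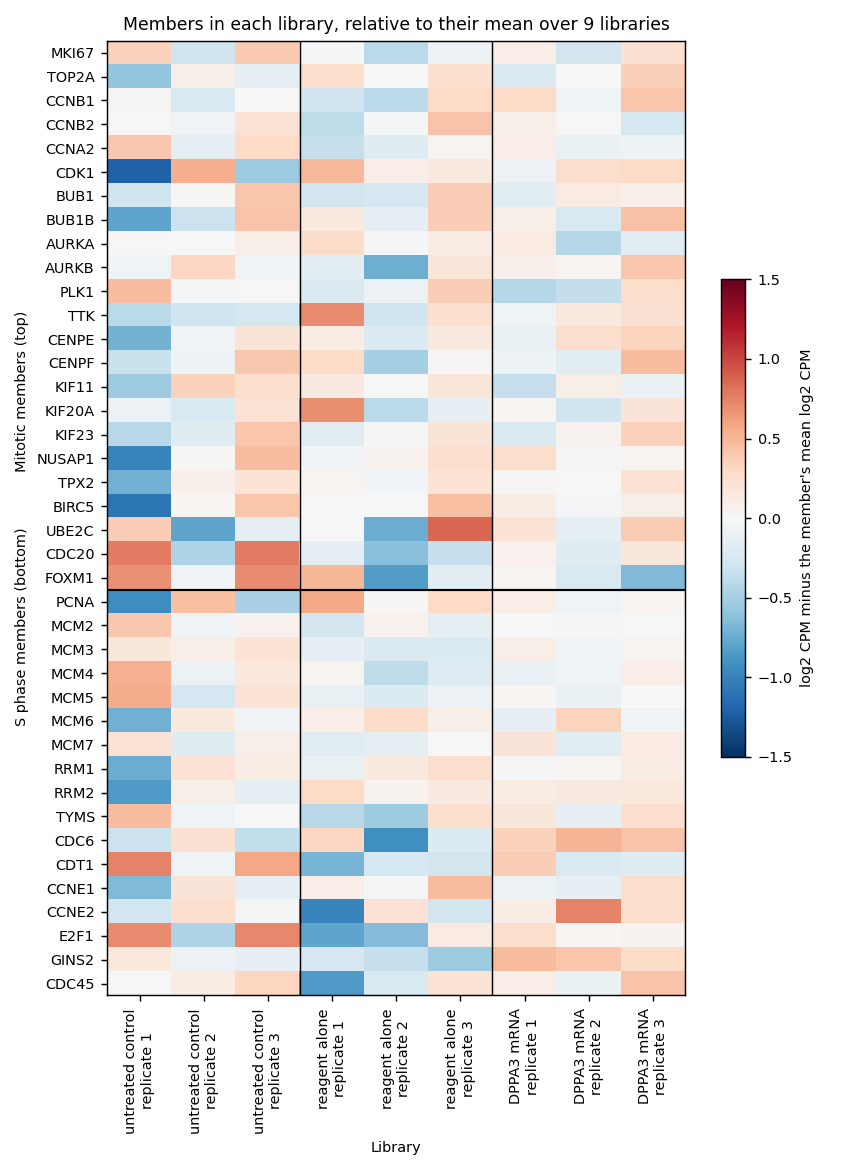
Level of each of 40 members (rows, mitotic above and S phase below the line) in each of 9 libraries (columns), as log2 CPM minus the member's mean over all libraries; red is above and blue below that mean. Untreated control replicate 1 holds the deepest blue cells, such as CDK1 at 9.02 CPM and BIRC5 at 3.06 CPM, beside red cells such as CDC20 at 17.2 CPM.

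Setting DPPA3 mRNA beside reagent alone addresses what the mRNA did to these genes in cells that all met the reagent. By edgeR's quasi-likelihood test 0 of 40 members had an adjusted p under 0.05 (Benjamini-Hochberg, over the whole table of tested genes), where 0.00672% of all genes were called, which is 1 gene, DPPA3. The adjusted p was 0.9998 for every member. The Wald test of DESeq2 and limma voom also called 0 members here and in both other comparisons. The median log2 fold change was -0.021 for mitotic members, with 10 of 23 above 0, and 0.16 for S phase members, with 12 of 17 above 0; the median over all genes tested was 0.0027. The mitotic median was -0.15 without reagent alone replicate 2 and 0.11 without reagent alone replicate 3, so its sign was not fixed by these libraries. The S phase median stayed above 0 on leaving out any of the 6 libraries, and reached 0.25 without DPPA3 mRNA replicate 2. For 34 of 40 members the 95% interval of the log2 fold change lay within a 2-fold change in either direction, and the median half-width of the interval was 0.55.

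GINS2 had the smallest p of the members. It encodes a subunit of GINS, which together with CDC45 and the MCM ring forms the helicase that opens DNA at the replication fork. Replicates 1, 2 and 3 of DPPA3 mRNA measured 15.2, 14.6 and 13.2 CPM of GINS2, while the reagent alone libraries measured 9.21, 8.62 and 7.56 CPM and the untreated controls 12.2, 10.3 and 10.1 CPM. Every DPPA3 mRNA library lay above every other library. The log2 fold change over reagent alone was 0.77 (SE 0.23, 95% interval 0.28 to 1.26, unadjusted p 0.0050), a ratio of 1.70, and it did not pass after adjustment (0.9998). It was the 1 member with an unadjusted p under 0.05, where 1.67% of all genes tested had one and 1.27% were also higher. That count became 2 without reagent alone replicate 1 and 4 without reagent alone replicate 3, where 1.64% and 2.05% of all genes had one.

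CDC6, which loads the MCM ring onto origins, measured 5.66, 6.32 and 5.94 CPM in the DPPA3 mRNA libraries, 5.48, 2.34 and 3.86 CPM with reagent alone and 3.55, 5.20 and 3.42 CPM in the untreated controls. Here too all DPPA3 mRNA libraries lay above the others, by a narrow margin over reagent alone replicate 1. Its log2 fold change over reagent alone was 0.67 (SE 0.38) and was 0.38 without reagent alone replicate 2. CCNE2, a cyclin of the kinase that starts S phase, measured 4.83, 7.50 and 5.26 CPM in the DPPA3 mRNA libraries, 2.24, 5.21 and 3.70 CPM with reagent alone and 3.71, 5.30 and 4.40 CPM in the untreated controls. Its groups overlapped, and its log2 fold change over reagent alone was 0.61 (SE 0.37). That value was 0.39 without reagent alone replicate 1, 0.40 without DPPA3 mRNA replicate 2 and 0.92 without reagent alone replicate 2.

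MCM3, a subunit of the MCM ring, measured 66.8, 61.1 and 64.8 CPM with DPPA3 mRNA, while the reagent alone libraries measured 57.8, 54.1 and 53.9 CPM. The groups did not overlap, and the log2 fold change was 0.22 (SE 0.14). In the untreated controls MCM3 measured 70.6, 66.8 and 72.3 CPM, so the reagent alone libraries were the low ones. Over both roles 4 of 40 members (MCM3, CDC6, CDT1 and GINS2) were higher with DPPA3 mRNA with no overlap, where 4.91% of all genes tested were, and 0 of 40 were lower with no overlap, where 3.99% were. GINS2 and CDC6 were the 2 members above every library of both other groups, where 0.740% of all genes tested were. Those genes were picked out after their values were seen.

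**Figure D3:**
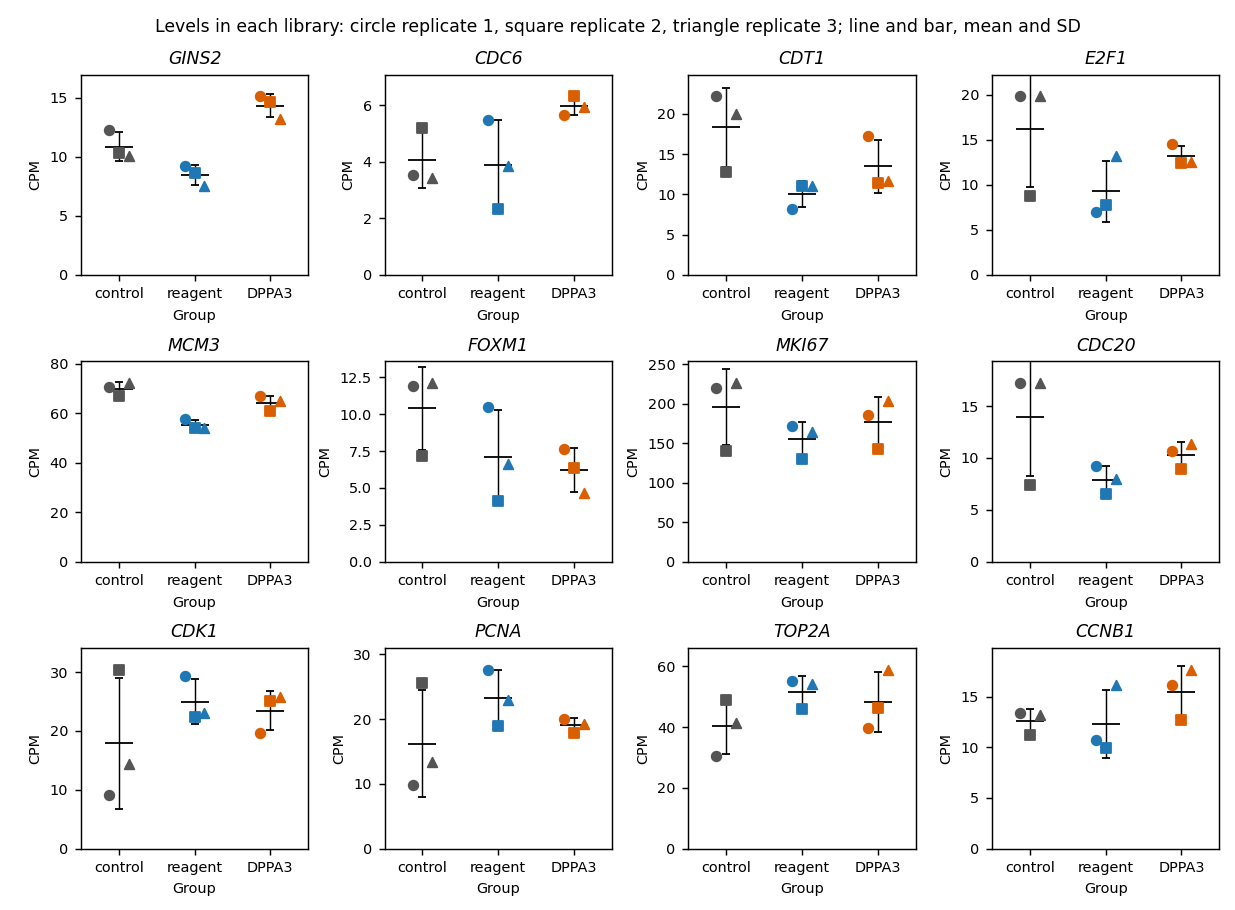
Level in CPM, on axes from 0, of 12 members in each of 9 libraries by group (untreated control, reagent alone, DPPA3 mRNA), with circles, squares and triangles for replicates 1, 2 and 3 and a line and bar for the mean and SD of 3 libraries. GINS2 at 13.2 to 15.2 CPM and CDC6 at 5.66 to 6.32 CPM with DPPA3 mRNA lay above the other groups, while CDK1 ranged from 9.02 to 30.4 CPM among the untreated controls alone.

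Against untreated control, the DPPA3 mRNA libraries carry the effects of reagent and mRNA together, with any difference in culture time. The edgeR test called 0 of 40 members, where 0.0134% of all genes tested were called, which is 2 genes. The adjusted p of the members by edgeR's quasi-likelihood test ran from 0.85 to 0.996. The median log2 fold change was 0.09 for the mitotic members, with 14 of 23 above 0, and 0.0085 for the S phase members, with 10 of 17 above 0, beside 0.0017 over all genes. The mitotic median became -0.068 without untreated control replicate 1 and -0.025 without DPPA3 mRNA replicate 3. An unadjusted p under 0.05 was found for 0 members, where 3.91% of all genes had one (2.09% higher and 1.82% lower). It was found for 7 members without untreated control replicate 2, where 18.7% of all genes had one. Without DPPA3 mRNA replicate 1 it was found for 2 members, where 4.32% of all genes had one. With the replicate number as a block it was found for 1, FOXM1, where 9.35% of all genes had one. For 32 of 40 members the 95% interval lay within a 2-fold change.

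FOXM1 had the smallest p against untreated control. It measured 7.62, 6.32 and 4.67 CPM with DPPA3 mRNA, 11.9, 7.15 and 12.1 CPM in the untreated controls and 10.5, 4.13 and 6.62 CPM with reagent alone. The lowest control lay within the range of the DPPA3 mRNA libraries. The log2 fold change was -0.74 (SE 0.36, edgeR adjusted p 0.85). GINS2 had a log2 fold change of 0.40 (SE 0.22) over untreated control, with no overlap. RRM2, the small subunit of the reductase that makes the building blocks of DNA, measured 49.3, 50.1 and 51.0 CPM with DPPA3 mRNA, 25.3, 48.7 and 41.8 CPM in the untreated controls and 56.3, 47.5 and 50.2 CPM with reagent alone. Its groups did not overlap against untreated control, with a log2 fold change of 0.37 (SE 0.21) that became 0.15 without untreated control replicate 1. With CDC6, TTK and GINS2 it made 4 of 40 members higher with no overlap, where 4.24% of all genes were, against 0 lower, where 3.86% were.

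Reagent alone was also set beside untreated control. The labels give no time for the controls, so the reagent cannot be told apart from a difference in culture time. That comparison called 0 of 40 members by edgeR's quasi-likelihood test, where 0% of all genes tested were called. The median log2 fold change of the S phase members was -0.25, with 12 of 17 below 0, and that of the mitotic members was 0.037, with 9 of 23 below 0, beside -0.0099 over all genes. For 30 of 40 members the 95% interval lay within a 2-fold change. The mitotic median was -0.074 without reagent alone replicate 3, -0.044 without untreated control replicate 1 and 0.16 without untreated control replicate 3, so its sign was not fixed. The S phase median was -0.13 without untreated control replicate 1 and -0.34 without untreated control replicate 2. An unadjusted p under 0.05 was found for 5 of 40 members (CDT1, CDC20, MCM3, E2F1 and MCM4), all lower with reagent alone, where 5.96% of all genes tested were lower at that level, 4.23% higher and 10.2% either. That count was 2 without untreated control replicate 1 and 14 without untreated control replicate 2, where 3.95% and 27.1% of all genes had one. It was 1 without untreated control replicate 3 and 2 without reagent alone replicate 2, where 7.84% and 5.31% had one. Both comparisons against untreated control use the same 3 control libraries.

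CDT1, the licensing factor that works with CDC6 to load the MCM ring, measured 22.2, 12.8 and 19.9 CPM in untreated control replicates 1, 2 and 3, 8.22, 11.0 and 11.0 CPM with reagent alone and 17.3, 11.5 and 11.7 CPM with DPPA3 mRNA. Every reagent alone library lay below every library of both other groups. Its log2 fold change against untreated control was -0.84 (SE 0.28, edgeR adjusted p 0.47) with reagent alone and -0.44 (SE 0.27, adjusted p 0.85) with DPPA3 mRNA. The second value was -0.27 without untreated control replicate 1 and -0.66 without DPPA3 mRNA replicate 1. E2F1 measured 19.8, 8.77 and 19.9 CPM in the untreated controls, 6.97, 7.72 and 13.2 CPM with reagent alone and 14.5, 12.4 and 12.6 CPM with DPPA3 mRNA. Untreated control replicate 2 lay among the reagent alone values, and the log2 fold change with reagent alone was -0.77 (SE 0.34). CDC20, the activator of the anaphase promoting complex, measured 17.2, 7.36 and 17.2 CPM in the untreated controls, 9.21, 6.56 and 7.96 CPM with reagent alone and 10.6, 8.94 and 11.4 CPM with DPPA3 mRNA. Its pattern over the controls was like that of E2F1, with replicate 2 low and replicates 1 and 3 high, and its log2 fold change with reagent alone was -0.83 (SE 0.32). MCM3 had a log2 fold change of -0.34 (SE 0.14). MCM3, CDT1 and GINS2 were the 3 members lower with reagent alone with no overlap, where 7.21% of all genes were, and 0 members were higher with no overlap, where 6.92% were. They were also the 3 members below every library of both other groups, where 1.72% of all genes tested were, and 0 lay above every such library, where 1.48% were.

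**Figure D4:**
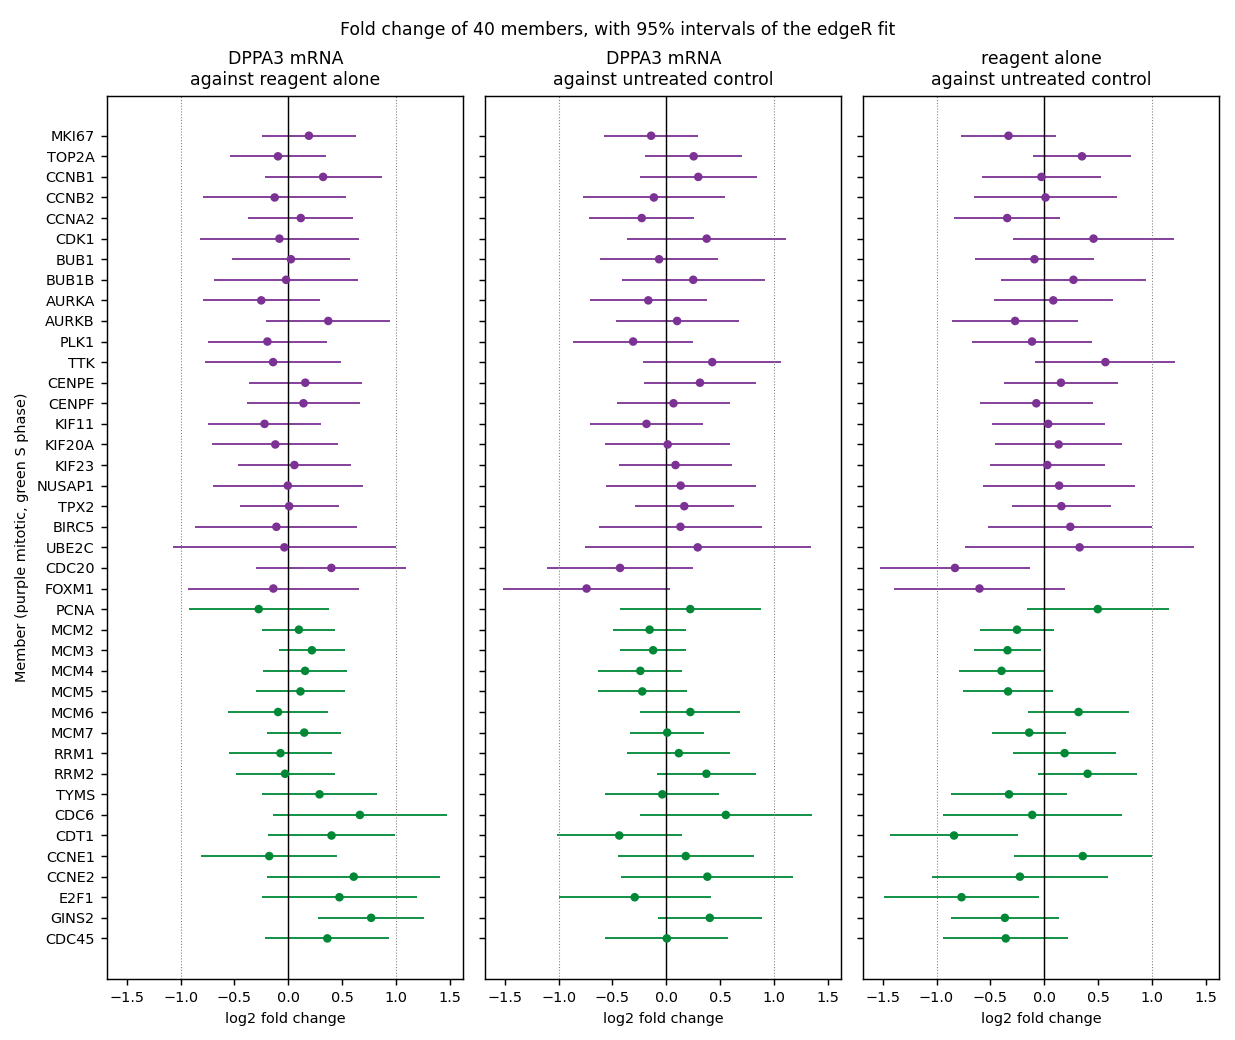
Log2 fold change of each of 40 members in 3 comparisons (points) with 95% intervals of the edgeR fit (lines), mitotic members in purple and S phase members in green; dotted lines mark a 2-fold change. GINS2 at 0.77 over reagent alone is the 1 interval clear of 0 in the left panel, and those of CDT1, CDC20, MCM3, E2F1 and MCM4 lie wholly below 0 in the right panel, none of them past the adjusted threshold.

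The remaining S phase members are grouped by the step they serve. MCM2 measured 175, 127 and 137 CPM in the untreated controls, 110, 137 and 121 CPM with reagent alone and 132, 130 and 132 CPM with DPPA3 mRNA. The DPPA3 mRNA libraries spanned a ratio of 1.02 and lay inside the range of both other groups. The group means of the other MCM subunits were 68.6 to 90.1 CPM for MCM4, 55.7 to 70.4 CPM for MCM5, 50.6 to 63.2 CPM for MCM6 and 84.3 to 93.4 CPM for MCM7. CDC45, the partner of GINS, had means of 18.0 ± 2.03 CPM in the untreated controls, 13.8 ± 4.85 CPM with reagent alone and 18.1 ± 3.39 CPM with DPPA3 mRNA (SD, n = 3). PCNA, the clamp that holds DNA polymerase on its template, measured 9.83, 25.5 and 13.3 CPM in the untreated controls, 27.6, 19.0 and 23.0 CPM with reagent alone and 20.1, 17.9 and 19.2 CPM with DPPA3 mRNA. The range of the controls again enclosed the DPPA3 mRNA libraries. CCNE1, the sister cyclin of CCNE2, measured 5.00, 8.99 and 7.14 CPM in the untreated controls, 8.47, 7.72 and 10.95 CPM with reagent alone and 7.46, 7.23 and 9.42 CPM with DPPA3 mRNA, with all groups overlapping. Of the enzymes that make DNA precursors, RRM1 had group means of 48.4 to 55.2 CPM and TYMS, thymidylate synthase, of 21.2 to 26.8 CPM.

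Other genes of the cycle were read from 5 lists with 157 genes. In each of the 3 comparisons 0 of the tested genes of these lists were called by edgeR's quasi-likelihood test. The 14 inhibitors and pocket proteins that hold cells in G1, such as the CDK inhibitor CDKN1A, had median log2 fold changes of -0.032, -0.042 and -0.033, in the order of the 3 comparisons above. CDKN1A measured 152, 103 and 89.9 CPM in the untreated controls, 97.1, 106 and 84.1 CPM with reagent alone and 109, 86.8 and 83.9 CPM with DPPA3 mRNA. Untreated control replicate 1 was the high library, and the log2 fold change of DPPA3 mRNA against the controls, -0.30 (SE 0.20), was -0.04 without it. CDKN2A and CDKN2C, inhibitors of CDK4 and CDK6, ranked lowest in p among these 14 genes in the other comparisons. CDKN2A measured 62.7, 33.1 and 39.6 CPM in the untreated controls, 28.9, 20.2 and 35.7 CPM with reagent alone and 44.1, 25.5 and 39.3 CPM with DPPA3 mRNA, and replicate 2 was the lowest of each group. CDKN2C measured 16.1, 13.9 and 16.04 CPM in the untreated controls, 10.2, 12.4 and 15.99 CPM with reagent alone and 14.6, 17.4 and 19.4 CPM with DPPA3 mRNA, with all groups overlapping. The 18 G1 cyclins, their kinases and other E2F factors had medians of 0.077, -0.093 and -0.18 in the same order. Within them E2F7, a repressor of E2F targets, measured 8.22, 4.79 and 5.43 CPM in the DPPA3 mRNA libraries, 0.996, 3.59 and 3.62 CPM with reagent alone and 9.18, 2.81 and 7.24 CPM in the untreated controls. Its log2 fold change over reagent alone was 1.07 (SE 0.49, edgeR adjusted p 0.9998) and was 0.77 without reagent alone replicate 1. In that library 3 counts make 0.747 CPM, so its 0.996 CPM rests on few counts. The DPPA3 mRNA libraries lay within the range of the controls. E2F6, another repressor of that family, measured 4.83, 7.58 and 10.8 CPM in the untreated controls, 13.4, 12.9 and 13.1 CPM with reagent alone and 13.6, 14.1 and 12.7 CPM with DPPA3 mRNA. All 3 controls lay below the other 6 libraries, where 1.43% of all genes tested had that order. The log2 fold changes were 0.75 (SE 0.28, edgeR adjusted p 0.47) for reagent alone and 0.79 (SE 0.28, adjusted p 0.85) for DPPA3 mRNA. E2F6 was picked as the smallest p of its list in both comparisons.

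The 44 other replication genes had median log2 fold changes of 0.029, 0.088 and 0.068 in that order. CHAF1A, of the complex that places histones on new DNA, measured 45.8, 44.6 and 47.6 CPM in the DPPA3 mRNA libraries, 36.4, 36.1 and 34.3 CPM with reagent alone and 44.6, 37.8 and 51.8 CPM in the untreated controls, with a log2 fold change over reagent alone of 0.37 (SE 0.17). Reagent alone was the low group for CHAF1A, as it was for MCM3, where 1.72% of all genes tested had that order. ORC2, of the complex that marks origins, measured 11.3, 21.2 and 14.9 CPM in the untreated controls, 27.6, 23.3 and 26.9 CPM with reagent alone and 20.5, 26.6 and 23.0 CPM with DPPA3 mRNA. All 3 controls lay below the reagent alone libraries, where 6.92% of all genes tested had that order. Untreated control replicate 2 lay above DPPA3 mRNA replicate 1. The log2 fold changes over the controls were 0.71 (SE 0.24) for reagent alone and 0.56 (SE 0.24) for DPPA3 mRNA. Without untreated control replicate 1 they were 0.53 and 0.38. The 66 other mitotic genes had medians of 0.015, 0.067 and 0.011. NCAPD2, a condensin subunit that compacts chromosomes, measured 57.6, 46.2 and 61.7 CPM in the DPPA3 mRNA libraries, 37.1, 38.7 and 42.9 CPM with reagent alone and 52.5, 45.6 and 69.1 CPM in the untreated controls. DEPDC1 measured 2.74, 4.01 and 2.93 CPM in the untreated controls, 7.47, 6.47 and 10.005 CPM with reagent alone and 4.37, 8.31 and 6.96 CPM with DPPA3 mRNA. Every untreated control lay below the other libraries, where 1.43% of all genes tested had that order. The log2 fold changes were 1.30 (SE 0.35, edgeR adjusted p 0.47) for reagent alone and 1.01 (SE 0.35, adjusted p 0.85) for DPPA3 mRNA. Of the 15 anaphase promoting complex genes 14 were tested, since ANAPC2 was not found by symbol, with medians of 0.062, 0.12 and 0.048. ANAPC13, a small subunit of that complex, measured 7.31, 7.68 and 9.51 CPM in the DPPA3 mRNA libraries, 3.74, 5.12 and 5.28 CPM with reagent alone and 3.87, 4.76 and 2.93 CPM in the untreated controls. Its log2 fold changes were 0.77 (SE 0.32, edgeR adjusted p 0.9998) and 1.08 (SE 0.32, adjusted p 0.85). All DPPA3 mRNA libraries lay above the others, where 0.740% of all genes tested had that order. ANAPC13 was picked as the smallest p of its list in both comparisons. FZR1, which activates the complex in G1, measured 76.9, 38.8 and 57.8 CPM in the untreated controls, 41.1, 38.1 and 42.0 CPM with reagent alone and 50.1, 37.4 and 49.7 CPM with DPPA3 mRNA, so untreated control replicate 2 lay among the other groups.

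The members also differed between libraries of the same group. In the untreated controls the median ratio of the highest to the lowest library was 1.66 over the 40 members, and 1.62 over the genes whose mean CPM lay within the members' range. It was 1.35 with reagent alone, beside 1.32, and 1.30 with DPPA3 mRNA, beside 1.32, so the members spread about as much as other genes of their level. A ratio above 2 was found for 8 of 40 members in the untreated controls, 6 with reagent alone and 0 with DPPA3 mRNA, where the share of genes in that range of CPM was 29.0%, 10.1% and 8.22%. The 4 members with the widest ratio at a mean of 5 CPM or more were CDK1, BIRC5, NUSAP1 and PCNA, all in the untreated controls.

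Untreated control replicate 1 was low for some members and high for others of the same machinery. BIRC5 measured 3.06, 6.60 and 8.61 CPM in untreated control replicates 1, 2 and 3, 6.47, 6.47 and 8.82 CPM with reagent alone and 7.01, 6.41 and 6.88 CPM with DPPA3 mRNA. NUSAP1 measured 4.35, 8.77 and 11.9 CPM in the untreated controls, 8.47, 8.98 and 10.3 CPM with reagent alone and 10.4, 8.49 and 8.91 CPM with DPPA3 mRNA. In both genes this 1 library lay below all the others. It lay below the other 8 libraries for 16 of 40 members and above them for 9, where the shares of all genes tested were 31.3% and 28.8%. Within the MCM ring, whose 6 subunits join in equal numbers, it was above all other libraries for MCM2 (175 CPM), MCM4 (111 CPM), MCM5 (89.9 CPM) and MCM7 (105 CPM), inside their range for MCM3 (70.6 CPM) and below all others for MCM6 (34.3 CPM). RRM1 and RRM2, the 2 subunits of ribonucleotide reductase, were both below all others, at 30.6 and 25.3 CPM. The part of the high LOC112442408 share in these values was not tested.

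**Figure D5:**
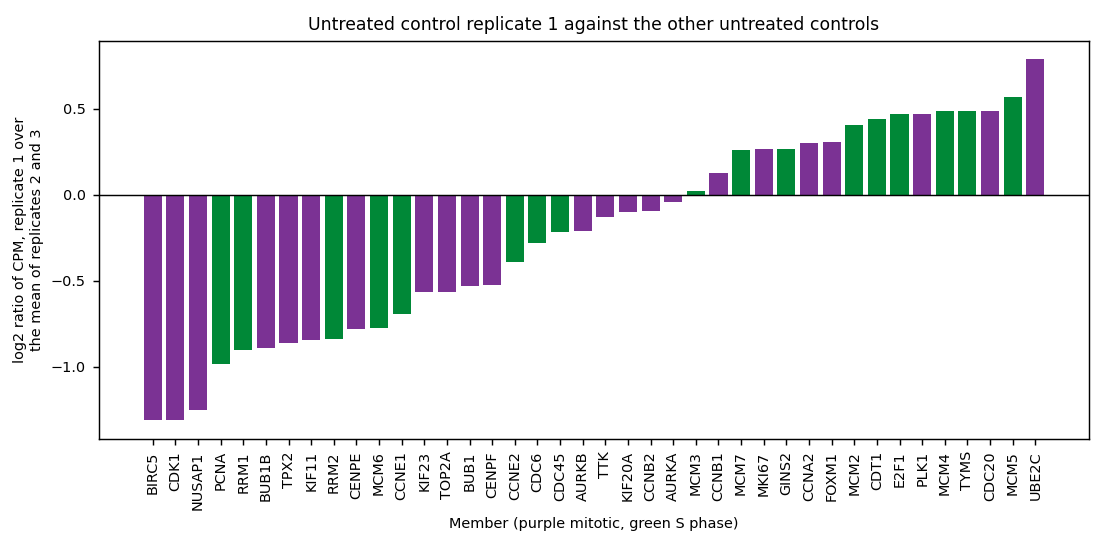
Log2 ratio of the CPM of untreated control replicate 1 to the mean of untreated control replicates 2 and 3 for each of 40 members (bars from 0, purple mitotic, green S phase), ordered by size. The ratios run from -1.31 for BIRC5 and CDK1 to 0.79 for UBE2C. MCM6 (-0.77) and MCM5 (0.57), of the same ring, lie on opposite sides of 0.

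Within each group, replicate 3 was most often the highest library for the mitotic members. Replicate 3 held the highest level of its group for 14 of 23 mitotic members in the untreated controls, 14 of 23 with reagent alone and 15 of 23 with DPPA3 mRNA, where all genes tested gave 23.0%, 31.2% and 28.4%. It held the lowest level for 0, 0 and 2 of them. In all 3 groups, 4 of 23 were highest in replicate 3 (BUB1B, CENPE, KIF23 and TPX2), where 4.09% of all genes tested were. Another 5 (MKI67, CCNB1, KIF20A, UBE2C and CDC20) were lowest in replicate 2 of all 3 groups, where 8.76% of all genes were, and 2 (BUB1 and KIF23) were lowest in replicate 1, where 11.5% were. Replicate 3 was highest for 3, 7 and 6 of 17 S phase members and lowest for 2, 3 and 1 of them; the difference between the lists was not tested. In a fit with group and replicate number together, 21 of 23 mitotic members were higher in replicate 3 than in replicate 2, with a median log2 difference of 0.32, against 10 of 17 S phase members with a median of 0.065 and 49.5% of all genes with a median of -0.0033. The edgeR test of the replicate number over all genes called 0 of 40 members, where 1.47% of all genes were called. MKI67 came nearest, with log2 differences of -0.47 for replicate 2 and 0.038 for replicate 3 relative to replicate 1 (adjusted p 0.068). At an unadjusted p under 0.05 there were 5 members, MKI67, KIF23, CENPF, BUB1B and MCM6, where 19.8% of all genes had one. This test was added after the values were seen, and the labels do not say what a replicate number stands for.

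Interferon-stimulated genes, part of the antiviral response of cells, were read beside the members. The mean log2 CPM of the 9 such genes tested was 3.02, 6.95 and 4.03 in DPPA3 mRNA replicates 1, 2 and 3, and 0.36 to 1.97 in the other 6 libraries. IFITM1, which was the 1 gene of all lists here that was called, measured 17.4, 42.3 and 27.0 CPM with DPPA3 mRNA and 3.38, 4.01 and 5.18 CPM in the untreated controls (edgeR adjusted p 0.037). Over reagent alone 0 of the 9 were called (smallest edgeR adjusted p 0.31). Their median log2 fold change there was 4.47, and 9 had an unadjusted p under 0.05, where 1.67% of all genes did. Their median interval half-width was 2.09, beside 0.55 for the members. The lack of a call thus does not show the lack of a change. DPPA3 mRNA replicate 2, with the highest interferon-stimulated level, had MKI67 at 143 CPM and a mitotic mean of 4.03. Reagent alone replicate 2 and untreated control replicate 2, with interferon-stimulated means of 0.73 and 1.04, had MKI67 at 131 and 140 CPM and mitotic means of 3.85 and 4.02. These are single libraries, and a relation between the interferon-stimulated level and the members was not tested. Within the DPPA3 mRNA group that level and the replicate number cannot be told apart.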

How the data were processed

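Libraries from total RNA of 9 samples were made with an IDT xGen kit, per the labels. The authors deposited raw read counts per gene symbol. Per the submitters' processing notes Trimmomatic, HISAT2, HTSeq and edgeR were used; any version, genome build or strand setting was not given in the sources used here. No coordinates or sequences are printed, and overlapping or antisense genes cannot be told apart.

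Genes were filtered with filterByExpr, scaled with TMM factors and fitted with edgeR 4.0.16 (glmQLFit, glmQLFTest; R 4.3.3) with a term for group alone, on the 9 libraries together. Called means a p under 0.05 after Benjamini-Hochberg adjustment over 14874 genes. The standard error is the log2 fold change over the square root of F, and intervals use the fit's degrees of freedom. The common biological coefficient of variation was 0.26. Replicates differed beyond sampling noise (chi-square per degree of freedom at least 13.4). The fits were also run on simulated counts with 200 changed genes. Those counts held no effect of replicate number and no library that stood apart, so that run cannot show how the fits handle either.

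Members and lists were chosen with earlier results of these data known. Values in every library are given for MKI67, TOP2A, CCNB1, CDK1, PCNA, MCM2, CCNE1, E2F1 and CDC20, the 4 members with the smallest p per comparison, the 4 with the widest ratio within a group at a mean of at least 5 CPM, and the gene with the smallest p of each other list.

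Replicate numbers recur across groups. Deviations from group means correlated at 0.34, 0.32 and 0.12 between equal numbers of DPPA3 mRNA and untreated control, which pairs them from the data, not the labels. The main fit did not use this pairing. Results were recomputed with the replicate number as a block, with single libraries removed and with the filter removed. Other fits used only the 2 groups of a comparison, or left DPPA3 out of the genes tested and the library sizes. Size factors and the Wald test of DESeq2 1.42.0 were also used and, added later, limma 3.58.1 voom with quality weights.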

Additional observations from a re-analysis of the deposited data

How the results depend on the processing

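No member was called in any comparison by any of the 13 alternatives each was given, DESeq2 and the replicate block included. The block thus changed no call of a member. At an unadjusted p under 0.05 the members counted were 1 in the first comparison (DPPA3 mRNA and reagent alone), 0 in the next (DPPA3 mRNA and untreated control) and 5 in the last (reagent alone and untreated control). Of all genes 1.67%, 3.91% and 10.2% had such a p in that order. With the replicate block no median changed sign except the mitotic median of the first comparison (0.015). The member counts were then 1, 1 and 6, where 2.43%, 9.35% and 19.6% of all genes had such a p. By the Wald test of DESeq2 they were 1, 0 and 5, beside 1.59%, 3.29% and 8.29% of all genes. With voom they were 3, 8 and 11, beside 6.02%, 16.4% and 26.2%. The smallest adjusted p of a member over all alternatives was 0.056, for CDC20 and CDT1 with limma voom in the last comparison. On leaving out single libraries the S phase median ran from 0.11 to 0.25, -0.024 to 0.11 and -0.34 to -0.13 in that order, and the mitotic median from -0.15 to 0.11, -0.068 to 0.23 and -0.074 to 0.16. Voom, chosen after seeing the data, gave a DPPA3 mRNA mitotic median of -0.10 relative to untreated control and, for reagent alone, a mitotic median of -0.13 and an S phase median of -0.16; the cause was not tested. Over all genes the calls, 1, 2 and 0, became 66, 69 and 18 when low counts were kept. They were 11, 12 and 2 by DESeq2, 1, 4 and 2 by voom, and 2, 7 and 0 with the block. Without DPPA3 mRNA replicate 1 they were 20 and 26, and without reagent alone replicate 1 there was 1 in the last comparison. With DPPA3 omitted they were 0, 0 and 0. That fit removed DPPA3 from the genes tested as well as from the library sizes, so DPPA3 could not be called. An effect of the scaling cannot be told apart from that removal. With DPPA3 left out of library sizes 1 member in place of 0 was lower than untreated control with no overlap. Libraries with equal replicate numbers correlated at 0.14, 0.12 and 0.086 in the first comparison and at 0.15, 0.14 and 0.093 in the last. Those were not all over 0.1. In the next comparison they correlated at 0.34, 0.32 and 0.12, all over 0.1. The main values of that comparison still came from the edgeR fit with group alone, which leaves the pairing out. With the block its smallest adjusted p of a member by edgeR was 0.52. The block was kept as an alternative in every comparison. No single member changed sign among those given with a fold change and recomputed. Depth limits the scarce members most: CCNE2 had 9 counts in reagent alone replicate 1.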
